A study of Mus musculus with 11 samples.

Results

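The stem cell factors of the Tal1-Erg circuit are a set of 10 transcription regulators, chosen by symbol and not by their values: Tal1, Lyl1, Lmo2, Gata1, Gata2, Erg, Fli1, Runx1, Mef2c and Hhex. All 10 had a row among the 37224 gene rows of the count table, and all 10 had at least 100 counts over both genotypes, the minimum used here for a call, which 13833 genes reached.

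The counts come from RNA-seq of T cell acute lymphoblastic leukaemias (T-ALL) raised in mice of C57/BL6 background. Blood progenitors bearing the cKit receptor were given a retrovirus for Notch1-IC, the active intracellular part of Notch1, and were injected intravenously into recipients; both genotypes carried Notch1-IC. The progenitors were either Utx knockout (Utx-/Y; 5 samples, of them 2 marrow and 3 spleen) or Utx wild-type (Utx+/+ or Utx+/Y; 6 samples, of them 2 marrow and 4 spleen), and 3 of the 11 samples were repeat runs. All knockout progenitors were therefore male, while the wild-type ones were of either sex; ages, the host strain and how the Utx allele was made were not given in the sources used here. Utx, listed as Kdm6a, removes methyl groups from lysine 27 of histone H3, a mark of silenced genes, and the comparison asks which genes differ in leukaemias that lack it.

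Each genotype is represented by 1 pooled count per gene, with a total of 106445530 counts (knockout) and 108015222 counts (wild-type). There is no replicate check: the share of each tumour in a gene's pooled count is unknown, and the exact 95% Clopper-Pearson intervals printed here cover counting error only. A gene is called higher or lower where it had at least 100 counts, differed by at least 2-fold after scaling to the totals, and had an interval without 0 on the log2 scale. Kdm6a itself stood at 10.5 against 58.3 CPM (counts scaled to the pool's total; the knockout value comes first here and below), in the direction of the labels. The pools also differed in sex markers, with Xist at 0.70 against 203 CPM and Ddx3y at 65.4 against 10.4 CPM. T cell markers were present in both pools: all 20 genes of that list were measured and summed to 5160 CPM in the knockout and 5363 CPM in the wild-type pool.

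These factors bind DNA together at the enhancers of blood stem and progenitor cells. Tal1 and Lyl1 are basic helix-loop-helix proteins that bind E-boxes with E proteins, Lmo2 is a bridging protein without DNA binding of its own that joins them to GATA factors, Erg and Fli1 are ETS factors, and Runx1 is the DNA-binding part of core binding factor. In normal thymus most of them are shut down as cells commit to the T lineage, while Runx1 stays on; Tal1, Lyl1 and Lmo2 are known as human T-ALL oncogenes when expressed out of place. Gata1 is the main regulator of red cell and megakaryocyte genes, Gata2 acts in stem cells and mast cells, Mef2c in myeloid and B cells and in early T cell progenitors, and Hhex is a homeobox repressor of blood progenitors and liver.

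All 10 factors had a log2 ratio of knockout over wild-type above 0, and 3 of them, Erg, Lyl1 and Gata2, were higher by at least 2-fold. None was lower and 7 were neither. By the same rule 11.2% of all genes tested were higher and 5.36% were lower. With a 3-fold minimum Erg and Lyl1 were still called and Gata2 was not, and 5.94% of the genes tested were higher. The median log2 ratio of the 10 factors was 0.60, beside -0.07 over the 13833 genes tested, and the values ran from 0.10 for Lmo2 to 3.19 for Erg. The interval lay above 0 for 9 of the 10, all but Hhex, and above 0 for 37.0% of the genes tested. In the authors' deposited table the same 9 factors were higher at a Benjamini-Hochberg q under 0.05, where 30.4% of the genes given a fold change were higher at that q and 37.4% lower; no factor was lower. This test compares the pools of reads and not the tumours.

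**Figure D1:**
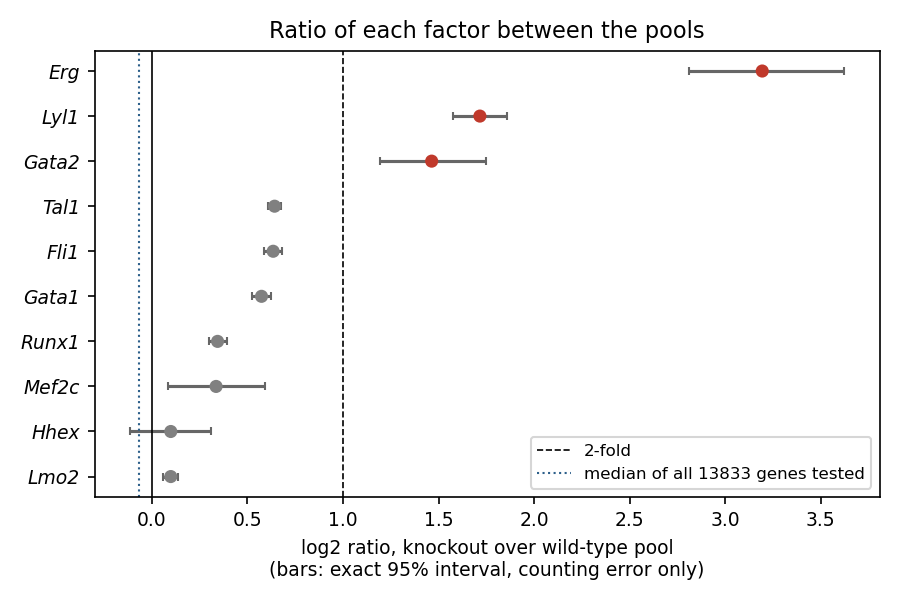
Log2 ratio of each of the 10 factors, knockout over wild-type pool, with exact 95% intervals of counting error; red points are called higher, grey points neither, the dashed line marks 2-fold and the dotted line the median of all genes tested. Erg at 3.19, Lyl1 at 1.72 and Gata2 at 1.46 lie beyond the 2-fold line, and the other members lie between 0.10 and 0.64.

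Levels of different genes were compared as CPM per kilobase of exon (RPKM). The most abundant factor in both pools, knockout and wild-type, was Lmo2, at 46.6 against 43.5 RPKM. Tal1 followed at 40.6 against 26.0 RPKM, Gata1 at 28.5 against 19.1 and Fli1 at 25.3 against 16.3. Lmo2 lay above 94.2% of the genes tested in the former and above 92.8% in the latter, so the core partners Tal1 and Lmo2 were abundant in both genotypes; the erythroid markers present beside them are given below. Per exon length, Runx1 and Lyl1 changed places. Lyl1 ranked 5 with 9.13 RPKM (knockout) and 6 with 2.78 RPKM (wild-type), where Runx1 stood at 6.41 and 5.05 RPKM. This order rests on exon lengths of 12025 bases for Runx1 and 1800 bases for Lyl1. In CPM Runx1 (77.1 against 60.7) was above Lyl1 (16.4 against 5.00) in both pools. Erg ranked 7 in the knockout and 9 in the wild-type pool, at 1.43 against 0.15 RPKM. Gata2 (0.71 against 0.26 RPKM), Hhex (0.70 against 0.66) and Mef2c (0.17 against 0.14) were at the low end, and Gata2 and Hhex could not be told apart in the knockout pool. Together the 10 factors summed to 159.6 RPKM in the knockout and 114.0 in the wild-type pool, and the 3 higher members made up 7.06% and 2.80% of these sums.

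**Figure D2:**
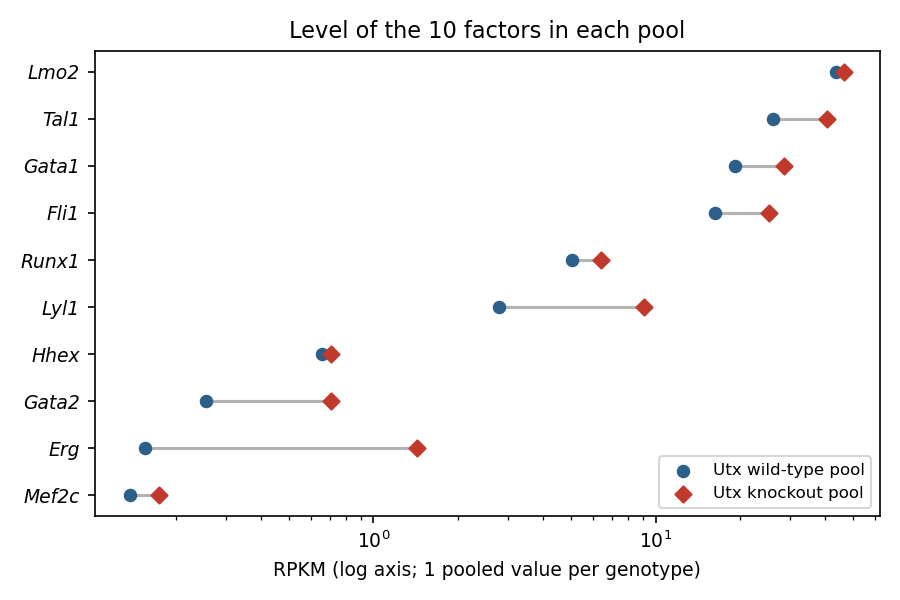
RPKM on a log axis for each factor in the Utx wild-type pool (blue circles) and the Utx knockout pool (red diamonds), 1 pooled value each, ordered by the wild-type level. The span between the symbols is widest for Erg, 0.15 to 1.43 RPKM, and narrow for Lmo2, 43.5 to 46.6 RPKM.

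The bHLH members differed from each other. Tal1 (ENSMUSG00000028717, chromosome 4, 115056426 to 115071755, plus strand; positions are those of GENCODE M21 on GRCm38) was read 18940 times in the knockout pool against 12313 times in the wild-type one, which is 178 against 114 CPM. That is 1.56-fold (interval 1.53 to 1.60), under the 2-fold minimum, and 17.5% of the genes tested had a larger log2 ratio. Lyl1 (ENSMUSG00000034041, chromosome 8, 84701457 to 84704715, plus strand), its closest relative, had 1750 against 540 counts, or 16.4 against 5.00 CPM, a 3.29-fold higher level (2.98 to 3.63). Only 5.15% of the genes tested had a larger ratio than Lyl1. Nfix overlaps Lyl1 on the opposite strand in that annotation and had 2958 against 3022 counts, a log2 ratio of -0.01, and whether counting used the strand is unknown. The log2 ratio of Lyl1 exceeded that of Tal1 by 1.08 (95% interval 0.93 to 1.22, counting error only). Tal1 transcripts were 9.37 times as abundant per length as those of Lyl1 in the wild-type pool and 4.45 times in the knockout pool, so that Lyl1 made up 9.64% of the pair in the former and 18.4% in the latter.

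Lmo2 (ENSMUSG00000032698, chromosome 2, 103957986 to 103981878, plus strand) had 10749 against 10183 counts, or 101 against 94.3 CPM, and a log2 ratio of 0.10 (0.06 to 0.14). Transcripts of the bridging protein of the complex were thus measured at almost the same level in both pools, on counts deep enough for an interval of this width.

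The GATA members showed the same order as the bHLH pair, with the scarcer member at the larger ratio. Gata1 (ENSMUSG00000031162, chromosome X, 7959260 to 7978071, minus strand) had 7392 against 5039 counts, or 69.4 against 46.7 CPM; its log2 ratio of 0.57 (0.52 to 0.63) was not called. Gata1 is X-linked and the pools differed in sex markers; the 449 X-linked genes tested had a median log2 ratio of -0.03 and the 13124 autosomal genes one of -0.07, and 21.2% of the X-linked genes lay above Gata1. Gata2 (ENSMUSG00000015053, chromosome 6, 88193891 to 88207032, plus strand) had 406 against 149 counts, or 3.81 against 1.38 CPM, and was 2.76-fold higher (2.29 to 3.36). The log2 ratio of Gata2 exceeded that of Gata1 by 0.89 (0.62 to 1.17). Gata1 outnumbered Gata2 per length 74.9 times in the wild-type and 40.3 times in the knockout pool. Gata3, the GATA factor of T cells, was also called higher, at 179 against 82.9 CPM, and Gata2 exceeded its log2 ratio of 1.11 by 0.36 (0.08 to 0.63).

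Among the ETS members Erg stood far from Fli1. Erg (ENSMUSG00000040732, chromosome 16, 95359169 to 95586593, minus strand) was read 527 times in the knockout pool against 58 times in the wild-type one, which is 4.95 against 0.54 CPM, a 9.15-fold higher level (7.02 to 12.3). Of the 13833 genes tested, 211 (1.53%) had a larger log2 ratio than Erg. Fli1 (ENSMUSG00000016087, chromosome 9, 32422204 to 32542861, minus strand) had 9402 against 6144 counts, or 88.3 against 56.9 CPM, which is 1.55-fold (1.504 to 1.604). The difference between these log2 ratios was 2.57 (2.18 to 2.96). Fli1 transcripts outnumbered those of Erg per length 105 times in the wild-type pool and 17.7 times in the knockout pool, so Fli1 remained the main one of the pair in both. Ets1, an ETS factor of mature lymphocytes, stood at 458 against 299 CPM with a log2 ratio of 0.62, close to that of Fli1, and Erg exceeded it by 2.59 (2.20 to 2.98).

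Runx1 differed little and its relatives differed more. Runx1 (ENSMUSG00000022952, chromosome 16, 92601466 to 92826149, minus strand) had 8206 against 6560 counts, or 77.1 against 60.7 CPM, a log2 ratio of 0.34 (0.30 to 0.39). Runx3, a regulator of cytotoxic T cells, was called higher at 152 against 63.0 CPM (log2 ratio 1.27), and Runx2, known from bone and early blood cells, at 44.1 against 10.2 CPM (2.11). The difference of the log2 ratios, Runx1 minus Runx3, was -0.93 (-0.99 to -0.86). Of the chosen pairs that set a member against a relative outside the circuit, it was the only one with the smaller ratio in the member. Pairs that were not chosen went both ways. Gata1 (0.57) lay below Gata3 (1.11) and Lmo2 (0.10) below Lmo4 (0.48), while Tal1 (0.64) lay above Tal2 (-0.06).

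Mef2c and Hhex were scarce in both pools. Mef2c (ENSMUSG00000005583, chromosome 13, 83504034 to 83667080, plus strand) had 290 against 233 counts, or 2.72 against 2.16 CPM, a log2 ratio of 0.34 (0.08 to 0.59). Mef2a, a relative found in most tissues, was at 29.7 against 32.4 CPM, and Mef2c exceeded its log2 ratio by 0.46 (0.20 to 0.72). Hhex (ENSMUSG00000024986, chromosome 19, 37434810 to 37440731, plus strand) had 379 against 359 counts, or 3.56 against 3.32 CPM, and its log2 ratio of 0.10 had an interval of -0.11 to 0.31. A difference in Hhex was not detectable at this depth, and one of 2-fold lay outside its interval.

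**Figure D3:**
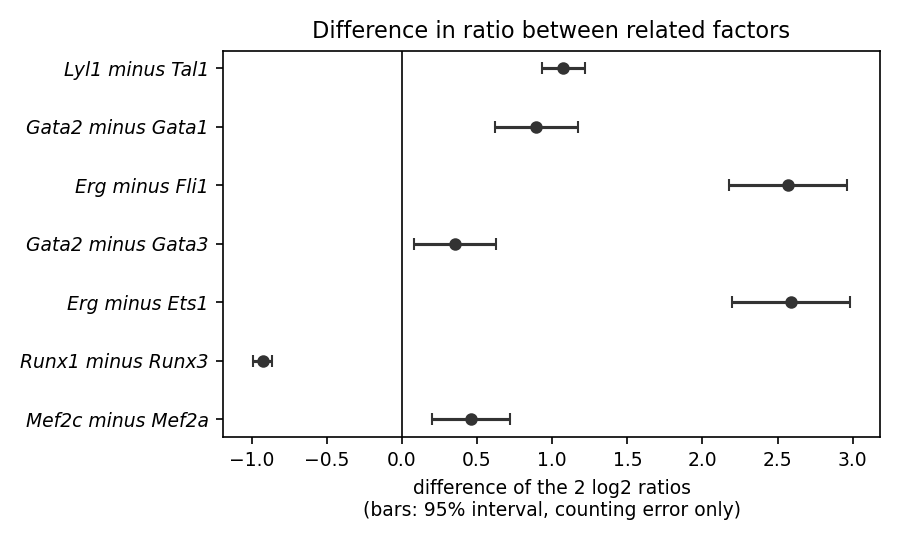
Difference between the log2 ratios of 7 pairs of related factors with 95% intervals of counting error; values right of 0 mean that the first gene of the pair had the larger knockout over wild-type ratio. Erg minus Fli1 stands at 2.57 and Erg minus Ets1 at 2.59, while Runx1 minus Runx3 stands at -0.93.

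Letters upstream of the start sites were examined because several of these factors are known to bind one another's regulatory DNA. RefSeq starts on GRCm38.p6 were found for 8 of the 10 members, with 15 starts in all, and the 250 bases before each were searched on both strands for 4 motifs. The E-box, bound by bHLH proteins such as Tal1 and Lyl1, was spelled CAGNTG. The motif of the zinc finger factors Gata1 and Gata2 was spelled AGATAA. The motif bound by proteins of the ETS family, such as Erg and Fli1, was spelled AGGAAG. The motif of the Runx proteins was spelled TGTGGT. Motifs of different kinds did not overlap in the windows printed. An E-box was present before 4 of the 15 starts and in 44.8% of 32851 windows of all genes, a GATA motif before 2 (9.99% of all), an ETS motif before 5 (29.5%) and a RUNX motif before 0 (14.05%). The window before the start of Erg that is nearest the end of the gene held 3 of the 4 kinds, with the E-box at position -217, the GATA motif at -103 and the ETS motif at -40, counted from the start. The other 2 starts of Erg and both starts of Gata2 held no match. The windows of the members with the largest ratios, Erg and Lyl1, are shown with that of the first start of Tal1, 5′ to 3′ along the gene, with motif matches on either strand in capitals. They lie at chr16:95459349-95459598 (minus strand), chr8:84701207-84701456 (plus strand) and chr4:115056176-115056425 (plus strand), and the counts do not show which start was used.
Erg, start 3: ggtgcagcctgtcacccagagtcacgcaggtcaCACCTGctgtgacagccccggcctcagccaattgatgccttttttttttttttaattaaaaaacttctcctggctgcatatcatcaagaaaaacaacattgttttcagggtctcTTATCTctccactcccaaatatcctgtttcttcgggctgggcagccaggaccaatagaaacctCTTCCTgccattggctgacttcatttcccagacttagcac
Lyl1: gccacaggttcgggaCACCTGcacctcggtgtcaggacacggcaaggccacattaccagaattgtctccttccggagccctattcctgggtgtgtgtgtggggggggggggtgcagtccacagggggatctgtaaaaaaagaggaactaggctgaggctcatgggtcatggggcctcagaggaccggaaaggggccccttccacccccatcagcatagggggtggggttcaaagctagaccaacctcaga
Tal1, start 1: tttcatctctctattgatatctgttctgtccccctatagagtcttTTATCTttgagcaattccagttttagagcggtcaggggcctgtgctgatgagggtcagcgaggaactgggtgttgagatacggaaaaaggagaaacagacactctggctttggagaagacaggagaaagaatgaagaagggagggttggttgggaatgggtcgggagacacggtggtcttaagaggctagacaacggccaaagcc

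The capitals in Erg are, in order, the E-box, the GATA motif and the ETS motif; that in Lyl1 is an E-box at position -235, and that in Tal1 a GATA motif at -205. A match is a description of these letters and not of binding.

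The nearest measured genes on either side of each factor were set beside it. Of 20 such neighbours, each with at least 100 counts, 2 were higher by at least 2-fold, beside 11.2% of all genes tested, and none was lower, beside 5.36%; their median log2 ratio was -0.10. The exception beside Tal1 was Pdzk1ip1, which encodes a small membrane protein and lies 17.0 kb beyond Tal1: it had 3215 against 290 counts, or 30.2 against 2.68 CPM; its log2 ratio of 3.49 (3.32 to 3.67) is larger than that of Tal1 itself. Stil, the neighbour on the other side of Tal1 and a centriole gene, was at -0.49 (-0.55 to -0.43). The other was C130071C03Rik, 54.3 kb beyond Mef2c, with 453 against 138 counts and a log2 ratio of 1.73 (1.46 to 2.02). Erg lies between Dyrk1a at -0.55 and Ets2 at -0.06, and Lyl1 between Trmt1 at -0.43 and G430095P16Rik at -0.16. Gata2 lies between Rpn1 at -0.42 and Eefsec at 0.12. Fli1 neighbours Ets1, and these had like log2 ratios, 0.63 and 0.62.

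**Figure D4:**
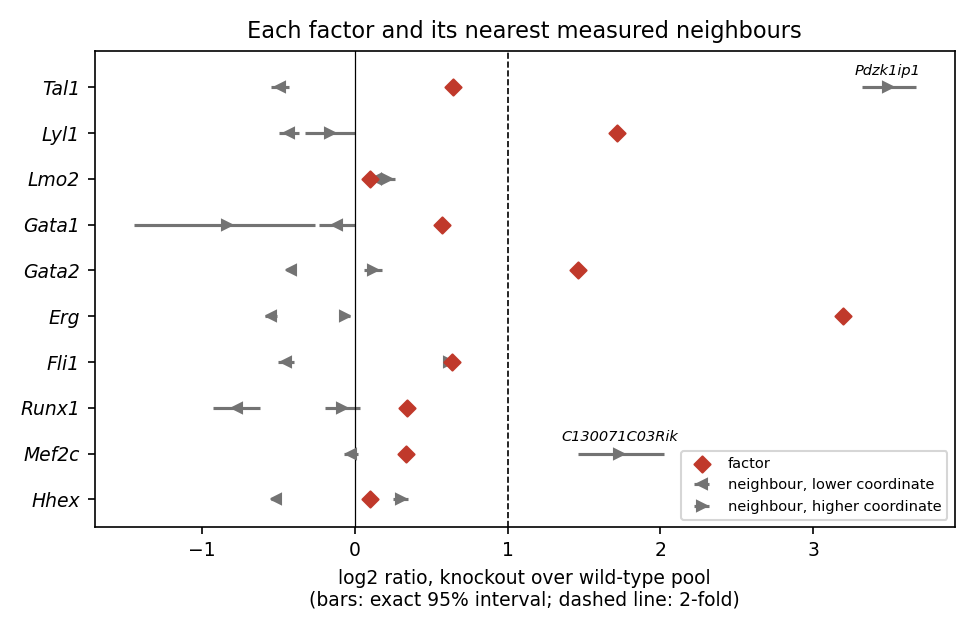
Log2 ratio of each factor (red diamonds) and of the nearest gene with at least 100 counts at lower (left-pointing) and higher (right-pointing) coordinates, with exact 95% intervals; the dashed line marks 2-fold. Pdzk1ip1 beside Tal1 stands at 3.49, while the neighbours of Erg, Lyl1 and Gata2 lie between -0.55 and 0.12.

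Genes of the protein partners of the complex were not called. Of 20 partner genes none was higher or lower, and the median log2 ratio was -0.15. For this and the other lists the median covers genes with at least 20 counts over both pools, and over all 17186 such genes it was -0.07. Ldb1, which holds the complex together by self-association, was at 117 against 121 CPM, and the E protein gene Tcf3 at 150 against 182 CPM. Another E protein gene, Tcf12, had the largest ratio at 0.51 (456 against 319 CPM), followed by Lmo4 at 0.48 (771 against 553 CPM). Zfpm1, the cofactor of Gata1, was at 0.41 and Myb at 0.28 (318 against 261 CPM). The corepressor gene Cbfa2t3, known as a partner of Tal1, was at -0.65, 11.05 against 17.4 CPM, and its relative Cbfa2t2 had the smallest ratio at -0.83. Cbfb, the binding partner of Runx1, was at -0.10.

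Relatives of the factors outside the circuit went both ways. Of 25 genes 19 were measured (at least 20 counts over both pools); 3 were higher, namely Runx2, Runx3 and Gata3, 2 were lower and the other 14 neither, and their median was 0.03. The lower ones were the lymphoid and B cell genes Spib, on 41 against 339 counts (log2 ratio -3.01), and Mef2b, on 53 against 292 counts (-2.43). Lmo1, a T-ALL oncogene related to Lmo2, had 159 against 82 counts and a log2 ratio of 0.97, and Tal2, a relative of Tal1, had 67 against 71 counts. Elf1, another ETS gene, was at 0.32 (161 against 130 CPM). Gata4, Lmo3 and Fev had no count in either pool, and Nhlh1 and Gata5 had none in the knockout pool and 3 each in the wild-type pool.

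Stem and progenitor genes reported as bound or driven by the circuit were mostly above 0. Of 25 genes 24 were measured and 18 had enough counts for a call. Of those measured 8 were higher, none was lower and the other 16 neither, and their median was 1.00. The surface receptor gene Cd93 was highest among the called ones at 69.1 against 11.7 CPM (log2 ratio 2.56). Prdm16 (1.55), Kit (1.52), Hoxb4 (14.4 against 5.07 CPM) and Hoxa9 (1.39) followed, which are genes of stem cell maintenance, and then Nfe2 (1.12) and Ikzf2 (1.07). Nfe2, a partner of Gata1 in red cells and megakaryocytes, was at 107 against 49.1 CPM and Ikzf2 at 171 against 81.1 CPM. Gfi1b, a red cell and megakaryocyte repressor, was at 0.43 and its relative Gfi1 at -0.66. Msi2 was at 122 against 106 CPM and the cytokine receptor gene Flt3 at -0.77. Many members of this list are active in the other cell types described next as well.

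Some markers of other cells that express these factors were called higher, in 5 of the 6 lists of such cells. No B cell marker was called higher, but only 6 of them had enough counts for a call. Among all genes tested 11.2% were higher, so the absence of a call among so few does not set the B cell list apart. The series' design text speaks of sorted populations with Notch1-IC, without giving the gate. In bulk samples, more cells of a type and more RNA per cell cannot be told apart, and the part of these cells in the ratios of the 10 factors was not tested. For Gata1 and Tal1 the cells concerned are erythroid. All 17 erythroid markers matched were measured, 5 were higher, none was lower, and the median was 0.67. The called ones were Alas2 (1.33), Hba-a1 (1.27), Epb4.2 (1.27), Rhd (1.17) and Hba-a2 (1.11) (reads of the near-identical alpha globin genes may be split between them). Summed levels of the list were 26991 CPM in the knockout and 13835 CPM in the wild-type pool, with no gene at 0, mostly from Hbb-b1 (7856 against 3928 CPM), Hba-a1 (7254 against 3001 CPM) and Slc4a1 (3336 against 2101 CPM). The red cell regulator Klf1 (0.57) and the membrane transporter gene Slc4a1 (0.67) had log2 ratios near those of Gata1 (0.57) and Tal1 (0.64).

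Mast cell, basophil and eosinophil markers, from cells that use Gata2, had the largest median of the lists. Of 16 genes 12 were measured, all 12 with a log2 ratio above 0, and the median was 2.71. Of these, 9 had enough counts for a call. Among them 7 were higher, beside 11.2% of all genes tested, and none was lower. The count minimums apply to both pools together. Epx (33 against 2 counts), Tpsb2 (22 against 4), Mcpt4 (104 against 12) and Fcer1a (121 against 9) passed them mostly on knockout counts. The number above 0 and the median therefore depend on this filter. The basophil protease genes Prss34 (843 against 29 counts, log2 ratio 4.86) and Mcpt8 (800 against 60 counts, 3.75) led the called ones. The IgE receptor gene Fcer1a (3.70), the mast cell protease genes Cpa3 (877 against 86 counts, 3.36) and Mcpt4 (3.08), and the eosinophil genes Ccr3 (1.81) and Prg2 (1.80) were higher as well. Il1rl1 was at 12.9 against 9.98 CPM. Their sum was 45.6 CPM in the knockout and 14.2 CPM in the wild-type pool; Tpsab1 had no count in either pool and Ear1 had 1 count in the knockout pool alone. Gata2, at a log2 ratio of 1.46, lay below all 7 called markers, which were picked for being higher. Of the measured markers not called, Hdc (0.64) and Il1rl1 (0.37) lay below Gata2. Epx (3.77), Tpsb2 (2.34) and Cd200r3 (2.11) lay above it, on few counts.

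Megakaryocyte and endothelial cells both use Erg and Fli1. Of 16 megakaryocyte and platelet markers 15 were measured and 12 had enough counts for a call. Among these 6 were higher and none lower. Their list had a median of 1.02 and sums of 55.7 against 26.4 CPM. The higher ones were Ppbp (2.66), Tubb1 (2.08), Pf4 (1.96), Gp5 (1.32), Itgb3 (1.11) and Itga2b (1.02), while Vwf was at 0.29 and Gp1bb at 0.11. All 17 endothelial markers were measured and 13 had enough counts for a call. Among them 7 were higher, beside 11.2% of all genes tested, and none was lower. The list had a median of 1.02 and sums of 98.2 against 80.2 CPM. Sox18 (87 against 20 counts), Flt4 (84 against 23) and Emcn (79 against 25) passed the minimum mostly on knockout counts. The number called therefore depends on this filter. Sox18 (2.11), Flt4 (1.87), Emcn (1.66), Stab2 (1.64), Esam (1.23), Flt1 (1.04) and Cldn5 (1.02) were higher, on 79 to 216 counts in the knockout and 20 to 94 in the wild-type pool, and the defining gene Cdh5 had 149 against 95 counts (0.67). The members with most counts, Pecam1 (60.7 against 52.2 CPM), Eng (12.7 against 8.58) and Egfl7 (10.5 against 12.3), were not called. No gene of either list was at 0, and none reached the log2 ratio of Erg, 3.19.

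Lyl1 and Mef2c are also expressed in myeloid cells. All 20 granulocyte, monocyte and macrophage markers were measured, 12 were higher and none lower, with a median of 1.27 and sums of 2822 against 2133 CPM. The macrophage genes Marco (2.43), Cd14 (2.18), C1qc (1.79), Itgam (1.79), Cd68 (1.73), C1qa (1.67), C1qb (1.59), Csf1r (1.46) and Vcam1 (1.37) were higher, along with Lyz2 (1.59), Csf3r (1.17) and Mpo (1.07). The abundant neutrophil genes S100a9 (0.49), S100a8 (0.29) and Ngp (-0.09) were not. Lyl1, at 1.72, lay within the range of these macrophage genes. All of them were called higher, as Lyl1 was, so a likeness between them was not tested. Of 12 B cell markers 11 were measured and 6 had enough counts for a call. None was higher and only Pax5 was lower (-2.04 on 63 against 265 counts). The list had a median of -0.05 and sums of 10.7 against 13.5 CPM. Cd79b lay just under the 2-fold minimum at 0.98, Cd22 was at -0.74, Cd79a at -0.05 and Ebf1 at -0.20.

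The T cell markers had similar sums in both pools, given above, while single genes differed. Of 20 genes 3 were higher, Il7r (2.49), Rag1 (1.60) and Rag2 (1.09), 1 was lower, Thy1 (-1.06), and the other 16 neither; their median was -0.14. Tcf7 was at 968 against 750 CPM, Thy1 at 461 against 960 CPM and Lck at 485 against 635 CPM. The call of Thy1 ended under TMM and median of ratios scaling and with totals that leave out mitochondrial and erythroid genes.

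**Figure D5:**
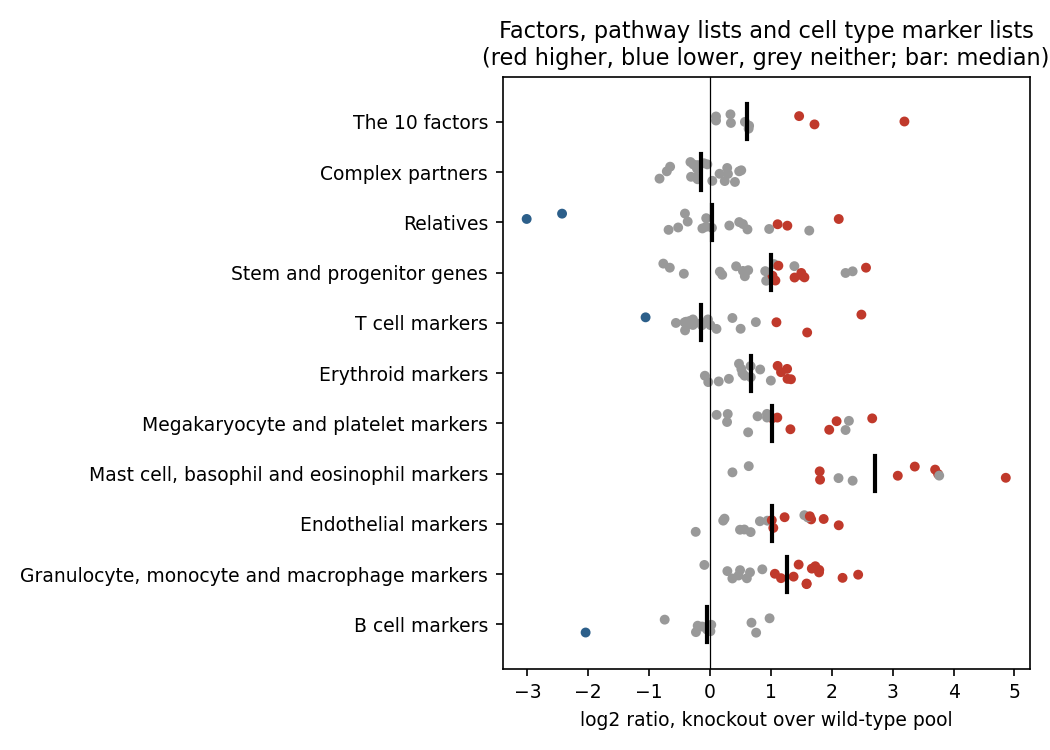
Log2 ratio of each measured gene for the 10 factors, the 3 pathway lists and the 7 cell type marker lists (red called higher, blue called lower, grey neither; black bars are list medians). The factors have a median of 0.60, the complex partners one of -0.15 and the mast cell, basophil and eosinophil markers one of 2.71.

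With 2 pools, likeness to a factor can only be read from level and ratio. The genes nearest to Erg in both, among named genes, were Chrm4 (571 against 61 counts), Mylk (479 against 57) and Efhd1 (485 against 61), at distances of 0.12, 0.17 and 0.22 in log2 units. Nearest to Lyl1 were Sdc3 (1822 against 558 counts), Axl (1824 against 580) and Fn1 (1863 against 551), at 0.06, 0.08 and 0.10. This likeness rests on 2 values per gene.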

How the data were processed

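Poly(A) RNA libraries of mouse T-ALL were strand-marked and sequenced from 1 end for 50 bases, per the labels. CASAVA, TopHat and the mm9 build are named in the submitters' processing notes, without versions; the annotation, counting tool and strand setting were not given in the sources used here. Deposited by the authors was 1 DEGseq table of raw read counts, pooled by genotype. Its first column was taken as knockout from the order of genotypes in the table's title. It also holds log2 fold changes, p-values and q-values from the authors' DEGseq test, and a z score per gene from that test, as deposited by the authors, which was not used.

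From the counts (37224 rows; 13843 without a value were set to 0), CPM, RPKM (union exon length, GENCODE M21, GRCm38, which differs from the build used for counting and lowers genes with many isoforms) and log2 ratios with a pseudocount of 0.5 counts were computed (Python 3.11.15, scipy 1.17.1). Differences between related genes have a normal interval from the 4 counts. Calls were tested on simulated data. The simulated counts held counting error only, so variation between tumours was not part of that test. TMM factors came from edgeR 4.0.16. Per-sample columns numbered 0, so no test across samples was run. Named genes were all members, every called list gene, up to 3 abundant genes per list, relatives used in pairs, and the 3 genes most like Erg and Lyl1; further list genes were named after their values were seen, as were the neighbours (nearest gene with at least 100 counts) and the X-linked genes. List genes were matched by symbol or identifier (188 of 189). The members and lists were chosen with earlier results of these data known. A called list gene is not reported here by name.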

Additional observations from a re-analysis of the deposited data

How the results depend on the processing

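The results were recomputed under 10 alternative settings. The scaling was changed to upper quartile, TMM, median of ratios, or totals without mitochondrial and erythroid genes, and the pseudocount to 5. The other settings were count minimums of 20 and 500, 1.5-fold and 3-fold minimums, and the authors' q in place of the interval. Only the scalings and the pseudocount can change a log2 ratio, and the other settings change calls alone. Under these scalings and this pseudocount the log2 ratio of each of the 10 factors stayed above 0. Erg ranged from 3.10 to 3.29, Lyl1 from 1.71 to 1.81, Gata2 from 1.44 to 1.56 and Tal1 from 0.64 to 0.73. The median of the factors was 0.60 to 0.70 over the scalings. With the 1.5-fold minimum 5 factors were higher, Tal1 and Fli1 in addition, where 18.9% of the genes tested were higher; with the 3-fold minimum Gata2 was no longer called, leaving 2, with 5.94% of genes. Of 200 list counts under alternatives 178 stayed within 1.5 times and 22 did not. Under TMM, under median of ratios scaling and without mitochondrial and erythroid genes, 0 T cell markers were lower and 1 B cell marker, Cd79b, was higher. With a minimum of 500 counts, 0 relatives and 0 B cell markers were lower, while 3 mast cell, basophil and eosinophil markers and 0 endothelial markers were higher. With the 1.5-fold minimum, 3 partners were lower, 5 relatives higher, 2 stem and progenitor genes lower, 9 erythroid markers higher, and 1 B cell marker was higher and 2 lower. With the 3-fold minimum, 1 relative, 1 stem and progenitor gene, 0 erythroid, 3 megakaryocyte and 4 endothelial markers were higher and 0 T cell markers lower. These counts follow from the changed scaling or minimum itself. No paired analysis was possible because the columns are pooled by genotype and carry no replicate; for the same reason no sample could be left out. Values of Erg, Gata2, Mef2c and Hhex rest on 523 to 738 counts over both pools and are the least precise of the factors.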
